A study of Mus musculus with 6 samples.

Results

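The genes described here are 31 genes that build cholesterol, control that building, and take up, move, store or export cholesterol, out of 53379 genes counted in the series. They were matched by symbol from a list chosen with earlier results of these data known, and all 31 were found in the count files. Of these, 19 encode enzymes of cholesterol synthesis, 4 the SREBP control system, 2 the LXR receptors, 4 uptake and transport proteins and 2 efflux pumps. Gene expression was read by RNA sequencing. The 6 libraries were made from cortex (cerebral) of mice of strain C57BL/6 at 2 months of age. The libraries comprise 3 labelled with genotype GTF2ird1-/- (replicates 5, 6 and 7) and 3 labelled wild type (replicates 1, 3 and 4). Gtf2ird1 encodes a transcription factor of the region deleted in Williams syndrome, and the comparison asks how its loss changes expression. The series title names the cells as Gad2+ neurons, that is, GABA-making neurons, with no account of the isolation in the sources used here. Neither the mutated part of the gene nor whether each library came from 1 animal is given either, so every p-value reflects the spread between libraries, which may be technical.

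Cholesterol in the brain is made locally, because lipoproteins of the blood do not cross the blood-brain barrier. Acetyl-CoA is built into mevalonate and then into isoprene units, which are joined to squalene, closed into lanosterol and trimmed to cholesterol. When sterol is scarce, SCAP carries the SREBP factors to the Golgi, where they are cut and released to switch on the synthesis genes. INSIG proteins hold SCAP back when sterol is plentiful. Oxysterols made from surplus cholesterol bind the LXR receptors, which switch on the efflux pumps ABCA1 and ABCG1. Astrocytes are a main source of cholesterol for neurons, oligodendrocytes use much of it for myelin, and microglia handle cholesterol from engulfed debris.

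Total gene counts lay between 16685959 and 30544144 in the knockout-labelled libraries and between 13627501 and 28933624 in the wild type libraries. Gtf2ird1 itself had 49.7, 40.6 and 48.8 CPM (counts scaled to library size) in knockout-labelled libraries 5, 6 and 7, against 23.3, 31.5 and 52.7 CPM in wild type libraries 1, 3 and 4. The groups overlapped, and the two-sided p by exact permutation was 0.4, where 0.1 is the smallest that 3 against 3 allows. A count over the whole gene need not fall in a mutant, so this does not check the labels. Markers of microglia were the most abundant of the 8 marker lists in every library: the 14 listed genes summed to 30826, 38700.0 and 35077 CPM in knockout-labelled libraries 5, 6 and 7, against 48181, 46622 and 30107 CPM in wild type libraries 1, 3 and 4. The 14 markers of GABAergic neurons summed to 929, 531 and 504 CPM in knockout-labelled libraries 5, 6 and 7, against 273, 219 and 678 CPM in wild type libraries 1, 3 and 4. Among these, Gad2 was present in every library. The subtype markers Pvalb and Npy were at 0 in wild type replicate 3, and Pvalb also in wild type replicate 4. Both were low elsewhere too, with 3 to 5 counts of Pvalb and 1 to 23 of Npy, and neither passed the filter on low counts. In such mixed material fewer cells of a type and less RNA per cell cannot be told apart. The libraries also differed within a group. Ribosomal RNA made up 6.20% of counts in knockout-labelled library 6 and 17.5% in wild type library 3.

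Many promoters of the synthesis enzymes share short motifs. The windows from 250 bases before to 50 bases after each transcription start were taken from RefSeq on GRCm38.p6, and 26 of the 31 genes had one. Both strands were searched, and a gene counted once if any of its windows held the motif. CCAAT, the box bound by NF-Y, stood in 15 of 16 synthesis genes (93.8%) and in 5 of the 10 other genes (50%), beside 41.1% of all 27025 genes with a window. The sterol regulatory element, searched only as TCACNCCAC, stood in 1 of 26 genes (3.85%), against 1.44% of all genes. The E-box CACGTG stood in 6 of 26 (23.1%), against 8.09% of all genes, and GGGCGG, the GC box of Sp factors, in 23 of 26 (88.5%), against 38.2% of all genes. The half-site AGGTCA repeated with 4 bases between, one form of LXR site, stood in 0 of 26 genes and 0.0148% of all genes. A match describes letters and not binding. Each motif was searched in the stated letters alone, so sites that vary from them were neither counted nor marked. A window without a match may therefore still hold such a site. The 250 bases before the start follow for Hmgcs1 and Cyp51, whose fold changes passed the test when 1 library was left out, for Msmo1, with the largest estimate among the synthesis genes that had a window, and for the efflux pump Abca1. Capitals mark TCACNCCAC, CCAAT and CACGTG or their complements, and no marked motif overlaps another in these 4 stretches.
Hmgcs1, chr13:119690101-119690350, plus strand: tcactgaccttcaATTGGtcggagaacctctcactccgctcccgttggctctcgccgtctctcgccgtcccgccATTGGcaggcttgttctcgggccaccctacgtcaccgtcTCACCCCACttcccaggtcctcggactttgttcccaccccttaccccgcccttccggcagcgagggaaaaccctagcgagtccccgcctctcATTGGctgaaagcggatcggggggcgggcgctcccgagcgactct
Cyp51, chr5:4104698-4104947, minus strand: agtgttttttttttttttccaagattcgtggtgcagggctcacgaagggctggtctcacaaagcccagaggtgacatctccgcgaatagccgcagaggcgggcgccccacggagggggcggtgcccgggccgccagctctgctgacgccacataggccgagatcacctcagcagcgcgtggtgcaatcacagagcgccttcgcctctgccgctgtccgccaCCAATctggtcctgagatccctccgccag
Msmo1, chr8:64733579-64733828, minus strand: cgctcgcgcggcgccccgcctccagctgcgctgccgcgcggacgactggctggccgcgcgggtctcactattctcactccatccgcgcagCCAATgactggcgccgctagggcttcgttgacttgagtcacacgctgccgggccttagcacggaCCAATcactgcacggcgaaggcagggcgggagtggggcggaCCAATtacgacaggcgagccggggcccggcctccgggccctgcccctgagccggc
Abca1, chr4:53159896-53160145, minus strand: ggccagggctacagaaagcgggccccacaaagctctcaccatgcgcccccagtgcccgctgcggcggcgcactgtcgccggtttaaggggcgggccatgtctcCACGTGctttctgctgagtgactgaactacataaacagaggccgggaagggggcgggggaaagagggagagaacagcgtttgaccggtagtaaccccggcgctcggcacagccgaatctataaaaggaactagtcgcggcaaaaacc
The sterol element of Hmgcs1 begins 137 bases before the start, with 3 CCAAT boxes around it in the printed stretch. Cyp51 has 1 CCAAT box and Msmo1 has 3. Abca1 has an E-box and no CCAAT box in this stretch.

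Across the 31 genes the highest levels belonged to uptake and efflux and the lowest to synthesis and Nr1h3. Levels between genes are given as CPM per kb of exon, as means over the 6 libraries, so that long genes are not favoured. Lrp1, a large endocytic receptor for lipoproteins, led with 157 CPM per kb, followed by Abca1 with 114 and Mylip, a ubiquitin ligase that removes lipoprotein receptors, with 94.8. All 3 lay above the 98th percentile of 13686 protein-coding genes tested. Hmgcs1, which makes HMG-CoA, was the highest synthesis gene with 25.1 CPM per kb, at percentile 89.6. Only Hmgcs1, Lbr and Ebp of the 19 synthesis genes were above 10 CPM per kb. The lowest were Fdps, at 0.455, and Idi1, at 1.73 CPM per kb. The order between neighbours such as Insig1 (17.2 CPM per kb) and Nr1h2 (17.8 CPM per kb) is within the spread of their libraries.

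**Figure D1:**
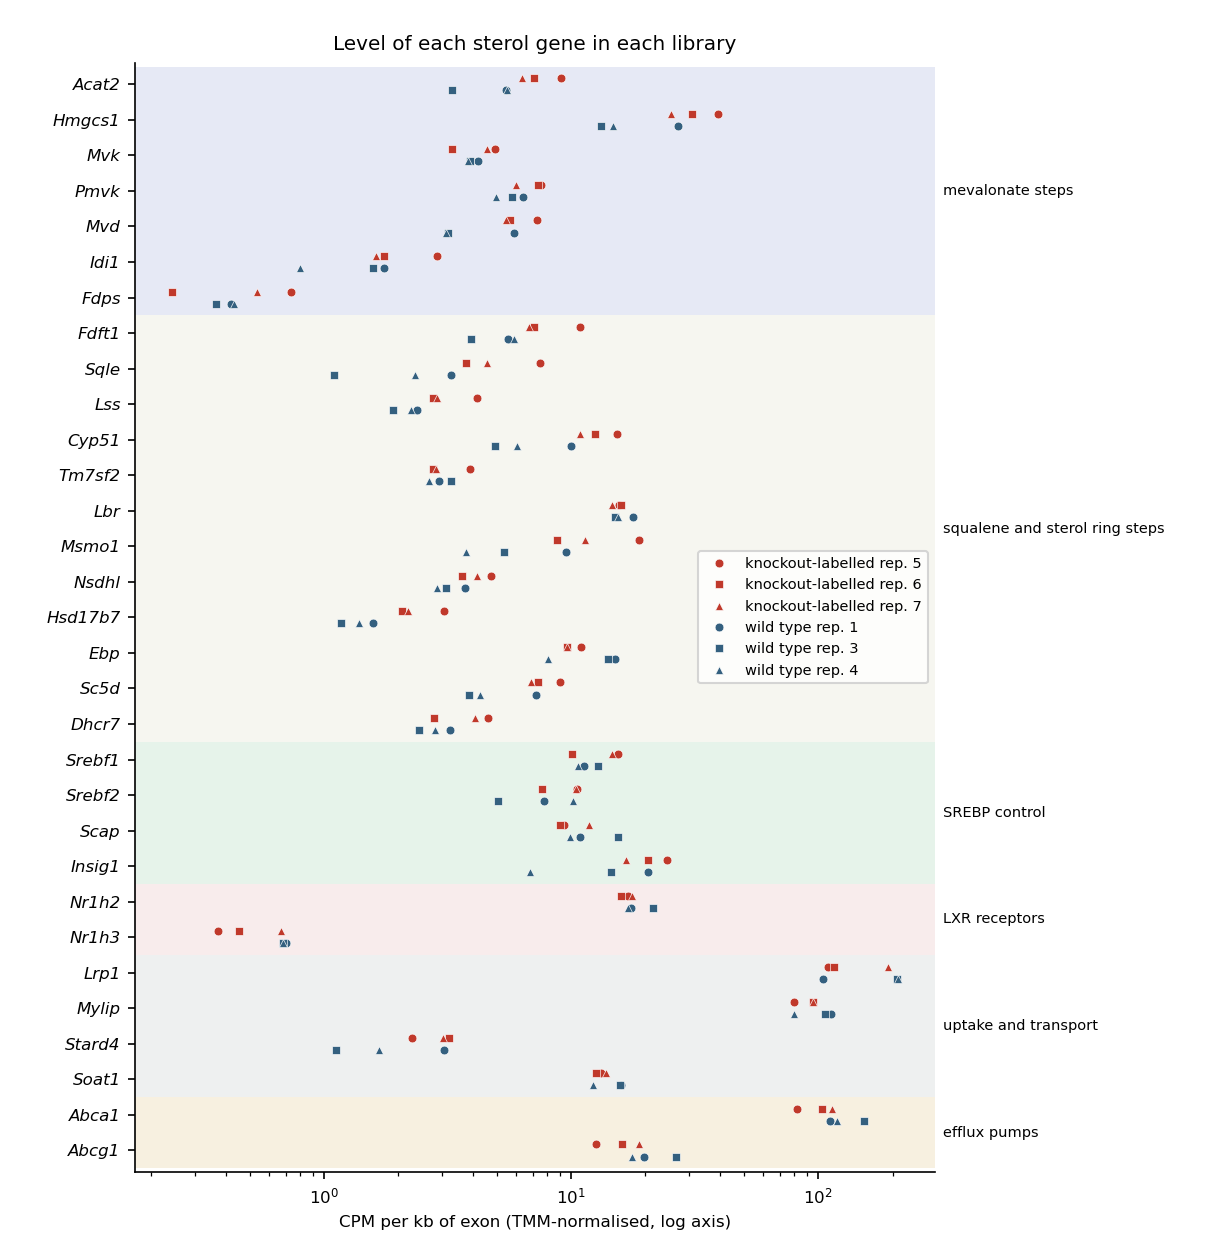
Level of each of the 31 genes in each library, as CPM per kb of exon on a log axis, with the 3 knockout-labelled libraries (red) above the 3 wild type libraries (blue) for each gene. Lrp1, Abca1 and Mylip lie furthest right, and for Sqle, Cyp51 and Hsd17b7 every red point lies right of every blue point.

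Low values need care for some genes. Fdps has 4 processed copies in the genome that are at least 95% identical over at least 500 bases, and it overlaps Gm43738 on the same strand, so reads could be lost and its level is uncertain. Idi1 has 2 such copies, and Gm13502 is 100% identical over 684 bases. Fdft1 shares 774 exon bases with Ctsb on the opposite strand, a cathepsin gene with between 17730 and 54378 counts. No source used here gives the strand setting of the counting, so reads of Fdft1 and Ctsb may not be fully separated. Cyp51 likewise shares 166 exon bases with Akap9 on the opposite strand. Tm7sf2 shares 532 exon bases with Vps51 on the same strand, a gene with between 625 and 1551 counts, so reads of Tm7sf2 could be lost too. All 31 genes passed the filter on low counts, and the lowest count of any in any library was 17.

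No gene of the 31 passed the test between the groups. By edgeR, with a Benjamini-Hochberg adjusted p of 0.05 as threshold, 0 of 31 were called higher and 0 lower, beside 0.00581% of 17221 genes called higher and 0% called lower. The smallest adjusted p among them was 0.637 by edgeR, and DESeq2 also called 0 of 31, where it called 0.0814% of 17208 genes higher and 0.0349% lower. At an unadjusted edgeR p under 0.05 there were 8 higher and 0 lower, all 8 of them synthesis genes, beside 4.48% of all genes higher and 2.77% lower. Estimates of log2 fold change were positive for 17 of 19 synthesis genes and for 46.3% of all genes tested. The median estimate of the synthesis genes was 0.59 on the log2 scale, beside -0.03 over all genes. By contrast, estimates were negative for 7 of the 8 LXR, uptake, transport and efflux genes, with a median of -0.24, where 53.7% of all genes were negative. With library totals alone as the scaling, which put the median of all genes at 0.11, estimates were negative for 4 of these 8 and positive for 18 of the 19 synthesis genes. Whether synthesis and efflux genes differed from each other was not tested, as the genes were chosen with earlier results known.

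The 7 genes of the mevalonate steps all had positive estimates, with a median of 0.58, and none passed the test. Hmgcs1 (ENSMUSG00000093930.2, chr13:119690379-119708260) had 181, 142 and 117 CPM in knockout-labelled libraries 5, 6 and 7, against 124, 60.6 and 67.8 CPM in wild type libraries 1, 3 and 4. Knockout-labelled replicate 5 was highest, wild type replicates 3 and 4 lowest, and wild type replicate 1 lay inside the range of the knockout-labelled libraries. Its log2 fold change was 0.80 (standard error 0.30, adjusted p = 0.637 in edgeR), and the 95% interval of the fold, before adjustment, ran from 1.07 to 2.83. Acat2, the thiolase that joins the first acetyl units, had 23.2, 17.97 and 16.1 CPM in knockout-labelled libraries 5, 6 and 7, against 13.9, 8.43 and 14.04 CPM in wild type libraries 1, 3 and 4. The lowest knockout-labelled library was above the highest wild type library, and the log2 fold change was 0.65 (standard error 0.26, adjusted p = 0.637 in edgeR). The next enzymes on the route stood closer together. Mvk, which phosphorylates mevalonate, had 13.2, 8.81 and 12.2 CPM in the knockout-labelled libraries and 11.2, 10.4 and 10.3 CPM in the wild type ones, and Pmvk, the following kinase, had 12.98, 12.6 and 10.3 CPM in the knockout-labelled libraries and 10.96, 9.88 and 8.504 CPM in the wild type ones. Both sets overlapped, with log2 fold changes of 0.10 and 0.29 (edgeR adjusted p = 0.895 and 0.688). Mvd, the decarboxylase that yields the isoprene unit, had 13.5, 10.5 and 10.2 CPM in the knockout-labelled libraries and 10.96, 5.89 and 5.82 CPM in the wild type ones (log2 fold change 0.58, standard error 0.31, adjusted p = 0.638 in edgeR). Idi1, which isomerises that unit, had 7.27 ± 2.38 CPM in the knockout-labelled libraries and 4.83 ± 1.79 CPM in the wild type libraries (SD, n = 3 each), and its log2 fold change was 0.59 (standard error 0.39, adjusted p = 0.673 in edgeR). Fdps, which joins isoprene units to farnesyl diphosphate, had 2.12 ± 1.04 CPM in the knockout-labelled libraries and 1.71 ± 0.152 CPM in the wild type libraries (SD, n = 3 each), with both extremes in knockout-labelled replicates 5 and 6 and a log2 fold change of 0.31.

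The squalene and sterol ring steps held the largest estimates, and 10 of their 12 genes were positive, none past the test. Sqle (ENSMUSG00000022351.14, chr15:59315077-59331192), the squalene epoxidase and a rate-limiting enzyme of the route, had 41.4, 20.8 and 25.3 CPM in knockout-labelled libraries 5, 6 and 7, against 18.2, 6.07 and 13.01 CPM in wild type libraries 1, 3 and 4. The groups did not overlap, and its log2 fold change of 1.22 (standard error 0.42, adjusted p = 0.637 in edgeR) was the largest of the 31 genes. The range within the wild type libraries alone was 2.99-fold, wider than the 2.33-fold fitted between the groups. Msmo1, the oxidase that starts removal of methyl groups from the ring, had 115, 53.7 and 70.2 CPM in knockout-labelled libraries 5, 6 and 7, against 58.4, 32.9 and 23.1 CPM in wild type libraries 1, 3 and 4. Wild type replicate 1 was above knockout-labelled replicate 6, so the groups overlapped (log2 fold change 1.06, standard error 0.40, adjusted p = 0.637 in edgeR). Cyp51 (ENSMUSG00000001467.5, chr5:4081145-4104746), the lanosterol demethylase, had 67.8, 55.3 and 48.1 CPM in knockout-labelled libraries 5, 6 and 7, against 44.2, 21.7 and 26.6 CPM in wild type libraries 1, 3 and 4. Every knockout-labelled library was above every wild type library, with replicate 1 the highest of the wild type ones (log2 fold change 0.88, standard error 0.28, adjusted p = 0.637 in edgeR). Hsd17b7 (ENSMUSG00000026675.12, chr1:169949535-169969241), the reductase that follows methyl removal, had 15.7, 10.5 and 11.2 CPM in knockout-labelled libraries 5, 6 and 7, against 8.04, 5.98 and 7.08 CPM in wild type libraries 1, 3 and 4. Here too the groups were apart, with a log2 fold change of 0.82 (standard error 0.25, adjusted p = 0.637 in edgeR), the smallest unadjusted p of the 31 genes.

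Fdft1, the squalene synthase at the branch towards sterols, had 45.9, 30.02 and 28.6 CPM in the knockout-labelled libraries and 23.6, 16.7 and 24.8 CPM in the wild type ones. Lss, which closes squalene epoxide into lanosterol, had 45.1, 29.8 and 31.02 CPM in the knockout-labelled libraries and 25.8, 20.6 and 24.2 CPM in the wild type ones. Both had groups that did not overlap, with log2 fold changes of 0.68 for Fdft1 and 0.59 for Lss (standard errors 0.24 and 0.20, adjusted p = 0.637 for both in edgeR). Sc5d, a sterol desaturase, and Dhcr7, which forms cholesterol from its immediate precursor, overlapped between groups. Sc5d averaged 37.7 ± 5.55 CPM in the knockout-labelled libraries and 24.9 ± 8.94 CPM in the wild type libraries (SD, n = 3 each), and Dhcr7 averaged 22.2 ± 5.41 CPM in the knockout-labelled libraries and 16.4 ± 2.39 CPM in the wild type libraries (SD, n = 3 each). Nsdhl, a dehydrogenase of methyl removal encoded on the X chromosome, averaged 11.9 ± 1.63 CPM in the knockout-labelled libraries and 9.25 ± 1.26 CPM in the wild type libraries (SD, n = 3 each). The remaining 3 genes differed least or lay the other way. Tm7sf2 and Lbr both encode sterol reductases of the same step, and LBR is also a receptor for nuclear lamins. Tm7sf2 had a log2 fold change of 0.10 (standard error 0.21, adjusted p = 0.885 in edgeR) and Lbr of -0.06 (standard error 0.12, adjusted p = 0.8897 in edgeR), with 74.6, 75.9 and 69.97 CPM in the knockout-labelled libraries and 84.5, 71.6 and 73.5 CPM in the wild type ones. The interval of the fold for Lbr ran from 0.785 to 1.17, the narrowest of the synthesis genes, and its sign flipped with library totals alone and without wild type replicate 1. Ebp, the sterol isomerase, had 25.5, 22.3 and 22.3 CPM in the knockout-labelled libraries and 34.8, 32.4 and 18.6 CPM in the wild type ones and a log2 fold change of -0.29 (standard error 0.24, adjusted p = 0.717 in edgeR).

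Taking the 19 enzymes together, the groups did not overlap in 6, all of them higher in the knockout-labelled libraries: Acat2, Fdft1, Sqle, Lss, Cyp51 and Hsd17b7. Over all genes tested, 6.34% were apart in that direction and 6.68% in the other, in which 0 of the 19 were apart. The count was 13 without wild type replicate 1 (18.0% of all genes) and 11 without knockout-labelled replicate 6 (10.9% of all genes), and it was 6 without wild type replicate 4, where 18.7% of all genes were apart in that direction. The summed level of the 19 genes was 789.8, 572 and 562 CPM in knockout-labelled libraries 5, 6 and 7, against 554, 366 and 379 CPM in wild type libraries 1, 3 and 4. That is 641 ± 129 CPM in the knockout-labelled libraries and 433 ± 105 CPM in the wild type libraries (SD, n = 3 each). The lowest knockout-labelled sum, in replicate 7, was close to that of wild type replicate 1. In 14 of the 19 genes, and in 25 of all 31, the highest wild type library stood further above the lowest than the group means stood from each other. The share over all genes tested was not computed, so this describes spread and is not a trait of these genes.

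The SREBP control genes were mixed and none passed the test. Insig1, itself a target of SREBP and a brake on it, had 75.5, 63.5 and 51.5 CPM in knockout-labelled libraries 5, 6 and 7, against 63.2, 44.9 and 21.1 CPM in wild type libraries 1, 3 and 4. The groups overlapped, with wild type replicate 4 lowest, and the log2 fold change was 0.56 (standard error 0.37, adjusted p = 0.673 in edgeR). Srebf2, whose product mainly drives cholesterol synthesis, had 75.8, 54.9 and 75.6 CPM in the knockout-labelled libraries and 55.95, 36.3 and 73.3 CPM in the wild type ones (log2 fold change 0.32, standard error 0.26, adjusted p = 0.721 in edgeR). Srebf1, whose product mainly drives fatty acid synthesis, had 86.98, 56.9 and 82.2 CPM in the knockout-labelled libraries and 63.5, 72.3 and 60.1 CPM in the wild type ones (log2 fold change 0.21, standard error 0.18, adjusted p = 0.733 in edgeR). Per length, Srebf1 had 13.4 CPM per kb in the knockout-labelled libraries and 11.6 in the wild type ones, and Srebf2 had 9.57 CPM per kb in the knockout-labelled libraries and 7.69 in the wild type ones. Scap, the escort of the SREBP factors, was the only control gene with a negative estimate, at -0.27 (standard error 0.20, adjusted p = 0.701 in edgeR), with 69.8, 67.2 and 87.8 CPM in the knockout-labelled libraries and 81.2, 116 and 73.8 CPM in the wild type ones.

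Both LXR genes had negative estimates without passing. Nr1h2, the widely expressed LXR beta, averaged 56.6 ± 2.92 CPM in the knockout-labelled libraries and 62.7 ± 8.22 CPM in the wild type libraries (SD, n = 3 each). Nr1h3, LXR alpha, was close to the low end of what was measured, with 0.938, 1.14 and 1.69 CPM in knockout-labelled libraries 5, 6 and 7, against 1.77, 1.72 and 1.71 CPM in wild type libraries 1, 3 and 4. All 3 knockout-labelled libraries lay below all 3 wild type libraries, though knockout-labelled replicate 7 was near them, and the log2 fold change was -0.46 (standard error 0.37, adjusted p = 0.712 in edgeR). Its counts ran from 19 to 54 per library. Per length, Nr1h3 had 0.499 CPM per kb in the knockout-labelled libraries and 0.6903 in the wild type ones, and Nr1h2 had 16.9 CPM per kb in the knockout-labelled libraries and 18.7 in the wild type ones.

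Among uptake and transport genes, none passed. Lrp1, the most abundant per length, had 1945, 2046 and 3399 CPM in knockout-labelled libraries 5, 6 and 7, against 1855, 3681 and 3742 CPM in wild type libraries 1, 3 and 4. Knockout-labelled replicate 7 sat with wild type replicates 3 and 4, and wild type replicate 1 was the lowest of all, so the groups overlapped (log2 fold change -0.33, standard error 0.35, adjusted p = 0.772 in edgeR). Mylip had 258, 307 and 308 CPM in the knockout-labelled libraries and 364, 345 and 258 CPM in the wild type ones, and Soat1, the enzyme that stores cholesterol as esters, had 129.9, 124 and 136 CPM in the knockout-labelled libraries and 156, 155 and 120.5 CPM in the wild type ones. Their log2 fold changes were -0.15 (standard error 0.18, adjusted p = 0.798 in edgeR) for Mylip and -0.15 (standard error 0.14, adjusted p = 0.749 in edgeR) for Soat1, and both turned slightly positive with library totals alone. Stard4, a carrier of cholesterol between membranes and a target of SREBP, was the only gene of this group with a positive estimate. It had 12.7, 17.9 and 16.9 CPM in knockout-labelled libraries 5, 6 and 7, against 17.1, 6.25 and 9.303 CPM in wild type libraries 1, 3 and 4, overlapping, with a log2 fold change of 0.53 (standard error 0.37, adjusted p = 0.681 in edgeR).

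The efflux pumps had negative estimates and did not pass. Abca1 (ENSMUSG00000015243.4, chr4:53030787-53159895), which loads cholesterol onto lipoprotein particles, had 853, 1077 and 1174 CPM in knockout-labelled libraries 5, 6 and 7, against 1162, 1593 and 1236 CPM in wild type libraries 1, 3 and 4. Wild type replicate 3 was highest and knockout-labelled replicate 5 lowest, while knockout-labelled replicate 7 lay above wild type replicate 1. The log2 fold change was -0.36 (standard error 0.21, adjusted p = 0.646 in edgeR), with a 95% interval of the fold, before adjustment, from 0.557 to 1.09. Abcg1 (ENSMUSG00000024030.6, chr17:31057675-31117988), a partner pump, had 92.4, 117 and 137 CPM in knockout-labelled libraries 5, 6 and 7, against 144, 194 and 129 CPM in wild type libraries 1, 3 and 4, in the same order of extremes (log2 fold change -0.43, standard error 0.21, adjusted p = 0.637 in edgeR, interval of the fold 0.529 to 1.04). Not scaled by length, the sum of both pumps over the sum of the 19 synthesis genes, in CPM, was 1.197, 2.09 and 2.33 in knockout-labelled libraries 5, 6 and 7, against 2.36, 4.88 and 3.603 in wild type libraries 1, 3 and 4. The ratio was below every wild type value in all 3 knockout-labelled libraries, but replicate 7 and wild type replicate 1 nearly met.

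Other genes of lipid metabolism were read from lists of 47 genes, of which 45 were tested and 0 passed in either direction by edgeR, 0 by DESeq2, with 9 higher and 0 lower at an unadjusted edgeR p under 0.05, beside 4.48% of all genes higher and 2.77% lower. The 13 fatty acid genes driven by SREBP had 12 positive estimates and a median of 0.82. Elovl5, which elongates polyunsaturated fatty acids, had 119, 80.9 and 75.5 CPM in the knockout-labelled libraries and 69.4, 44.4 and 34.4 CPM in the wild type ones (log2 fold change 0.89, standard error 0.29, adjusted p = 0.637 in edgeR). Fasn, the fatty acid synthase, had 273, 161 and 225 CPM in the knockout-labelled libraries and 146, 114 and 161 CPM in the wild type ones (log2 fold change 0.65, standard error 0.23, adjusted p = 0.637 in edgeR). In both, every knockout-labelled library was above every wild type library. The list was uneven, since Acly, which supplies cytosolic acetyl-CoA, and Fads1, a desaturase, had log2 fold changes of 0.02 and 0.03.

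The other lists were flatter or split. Of 5 genes of SREBP processing, 4 had negative estimates, with Mbtps1, the first protease that cuts SREBP, at -0.28 (standard error 0.13, adjusted p = 0.637 in edgeR) and Mbtps2, the second, at -0.17 (standard error 0.15, adjusted p = 0.724 in edgeR). Of the 6 tested LXR partners and targets, 4 were negative, with Rxra, a heterodimer partner of LXR, at -0.46 (standard error 0.22, adjusted p = 0.637 in edgeR) and Lpcat3, a phospholipid acyltransferase under LXR control, at -0.26 (standard error 0.13, adjusted p = 0.637 in edgeR). Rxrg, with between 3 and 10 counts per library, did not pass the filter on low counts and was not tested. The 8 genes of the isoprenoid branches, which draw on the same intermediates, had a median of 0.00. The smallest p there belonged to Pggt1b, a subunit of a prenyltransferase, at -0.16 (standard error 0.15, adjusted p = 0.748 in edgeR), and Pdss1, a coenzyme Q enzyme, at 0.25 (standard error 0.29, adjusted p = 0.791 in edgeR). Of the oxysterol enzymes, Cyp7b1, an oxysterol hydroxylase, had 9.89, 3.65 and 5.28 CPM in the knockout-labelled libraries and 3.27, 0.816 and 0.514 CPM in the wild type ones (log2 fold change 1.97, standard error 0.72, adjusted p = 0.637 in edgeR), and Cyp46a1, the hydroxylase by which neurons dispose of cholesterol, had 9.85, 7.13 and 7.22 CPM in the knockout-labelled libraries and 6.89, 3.26 and 2.63 CPM in the wild type ones (log2 fold change 0.90, standard error 0.40, adjusted p = 0.637 in edgeR). Without wild type replicate 1, Cyp7b1 passed, with an adjusted p of 0.0491 in edgeR. The 10 other uptake and transport genes had 4 positive and 6 negative estimates, with a median of -0.06. The smallest p there belonged to Vldlr, a lipoprotein receptor, at 1.200 (standard error 0.42, adjusted p = 0.637 in edgeR), and Abca5, at 1.008 (standard error 0.49, adjusted p = 0.637 in edgeR), both positive.

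The libraries ranked alike over many synthesis genes. Knockout-labelled replicate 5 was the highest library for 17 of the 19 genes and for 19.9% of all genes tested, and wild type replicate 3 or 4 was the lowest for 16 of 19 and for 46.2% of all genes. Wild type replicate 1 was above both other wild type libraries in 15 of 19 genes, beside 34.8% of all genes. It lay inside the range of the knockout-labelled libraries in 11 of 19, beside 40.8% of all genes. Each gene was also set relative to its own mean over the 6 libraries on the log2 scale. The median of these relative levels over the synthesis genes was 0.64, 0.11 and 0.16 in knockout-labelled libraries 5, 6 and 7, against 0.03, -0.47 and -0.34 in wild type libraries 1, 3 and 4. For the efflux pumps it was -0.48, -0.14 and 0.03 in knockout-labelled libraries 5, 6 and 7, against 0.06, 0.50 and 0.03 in wild type libraries 1, 3 and 4, with the lowest value where that of the synthesis genes was highest and the highest value where it was lowest.

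Markers of astrocytes, oligodendrocytes and their precursors had their lowest summed levels in wild type replicates 3 and 4. The same held for border-associated macrophage, endothelial and mural, and glutamatergic markers, given below. The 13 astrocyte markers summed to 6707, 3706 and 4174 CPM in knockout-labelled libraries 5, 6 and 7, against 3758, 648 and 323 CPM in wild type libraries 1, 3 and 4, and their median relative level was 1.86, 0.64 and 1.100 in knockout-labelled libraries 5, 6 and 7, against 0.52, -1.35 and -2.89 in wild type libraries 1, 3 and 4, so that the groups did not overlap in that median. All 13 had positive estimates, and in 10 of them every knockout-labelled library was above every wild type library, beside 6.34% of all genes. None of the 13 passed in edgeR with all 6 libraries, and 7 were higher at an unadjusted p under 0.05, beside 4.48% of all genes. The 11 oligodendrocyte markers summed to 1411, 1021 and 1458 CPM in knockout-labelled libraries 5, 6 and 7, against 1289, 299 and 124 CPM in wild type libraries 1, 3 and 4, and the 7 precursor markers to 286, 230.1 and 132 CPM in knockout-labelled libraries 5, 6 and 7, against 175, 6.89 and 63.8 CPM in wild type libraries 1, 3 and 4. None of the astrocyte, oligodendrocyte and precursor markers was at 0 in any library, and their part in the values of the synthesis genes was not tested. Microglial markers had a median relative level of -0.28, -0.03 and -0.12 in knockout-labelled libraries 5, 6 and 7, against 0.38, 0.36 and -0.28 in wild type libraries 1, 3 and 4, and their part in the values of the efflux pumps was not tested either. The GABAergic list was 0.91, 0.22 and 0.06 in knockout-labelled libraries 5, 6 and 7, against -1.08, -0.88 and 0.79 in wild type libraries 1, 3 and 4, an order unlike that of the synthesis genes, as wild type replicate 4 was among the highest. Border-associated macrophage markers summed to between 660.3 and 781 CPM in the knockout-labelled libraries, against 1067, 317 and 410 CPM in wild type libraries 1, 3 and 4. Endothelial and mural markers summed to between 174 and 251 CPM in the knockout-labelled libraries, against 186, 115 and 65.3 CPM in wild type libraries 1, 3 and 4. Glutamatergic markers summed to between 60.8 and 96.5 CPM in the knockout-labelled libraries, against 105, 29.1 and 25.7 CPM in wild type libraries 1, 3 and 4. The part of these lists in the values of the synthesis genes was not tested either.

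**Figure D2:**
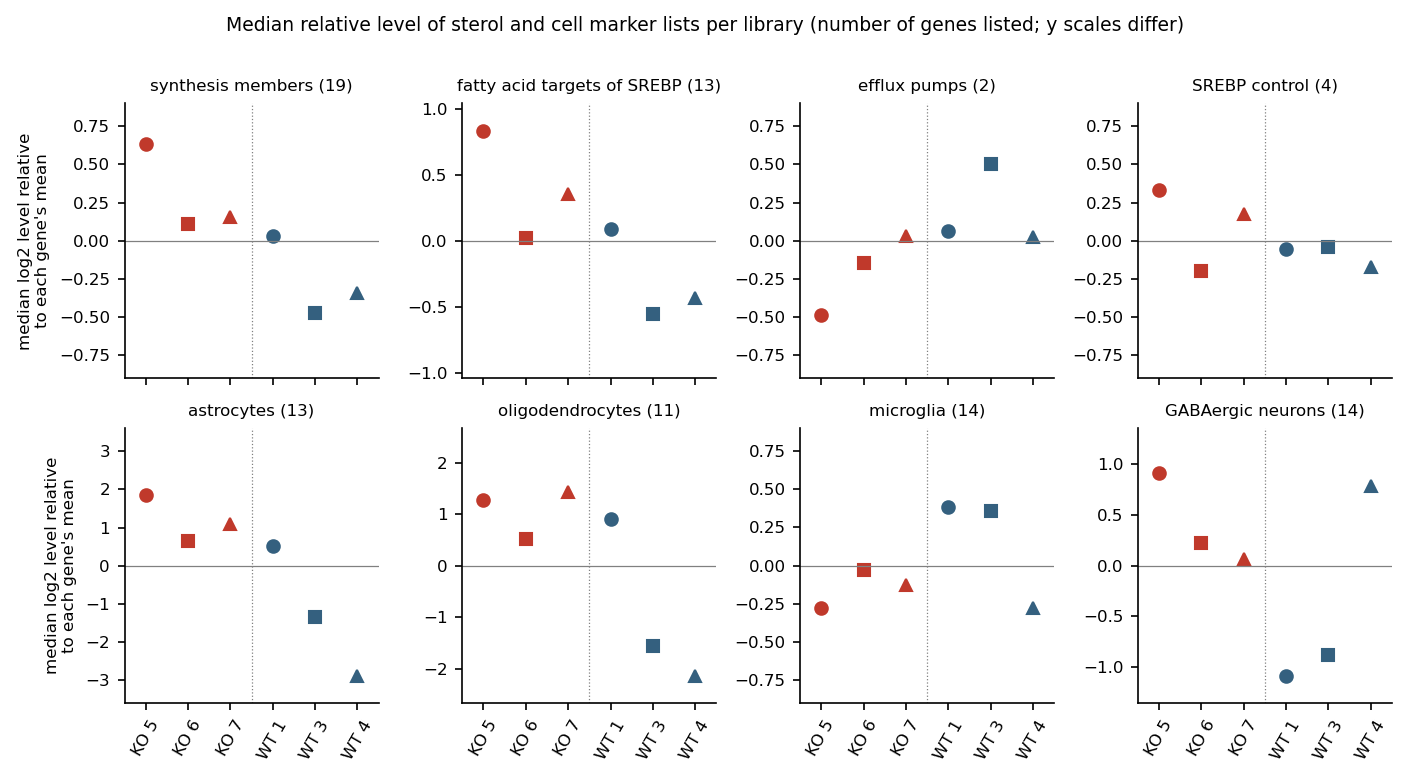
Median over each list of the log2 level relative to each gene's mean, for knockout-labelled replicates 5, 6 and 7 (red, left) and wild type replicates 1, 3 and 4 (blue, right); the number in brackets is the size of the list and the vertical scales differ. Synthesis genes, fatty acid genes, astrocyte markers and oligodendrocyte markers are lowest in wild type replicates 3 and 4, and the efflux pumps are highest in wild type replicate 3.

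Leaving out wild type replicate 1 changed the calls of 2 members. Without it, Hmgcs1 had a log2 fold change of 1.19 (edgeR adjusted p = 0.0491) and Cyp51 of 1.24 (edgeR adjusted p = 0.0414), in a fit that called 1.77% of all genes higher and 0.0866% lower. Both adjusted p-values lie just under the threshold. The gene next in line was Sc5d, at an edgeR adjusted p of 0.05803. The same fit called 8 of 13 astrocyte, 6 of 11 oligodendrocyte and 3 of 6 border-associated macrophage markers higher. It also called 2 of 11 endothelial and mural and 1 of 7 precursor markers higher. Of the microglial, GABAergic and glutamatergic markers it called 0. None of the 31 genes passed in the fits that left out any of the other 5 libraries. The median log2 fold change of the synthesis genes ran from 0.37, without knockout-labelled replicate 5, to 0.74, without wild type replicate 1. For Sqle it ran from 0.88 to 1.598, and for Abca1 from -0.45 to -0.20.

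**Figure D3:**
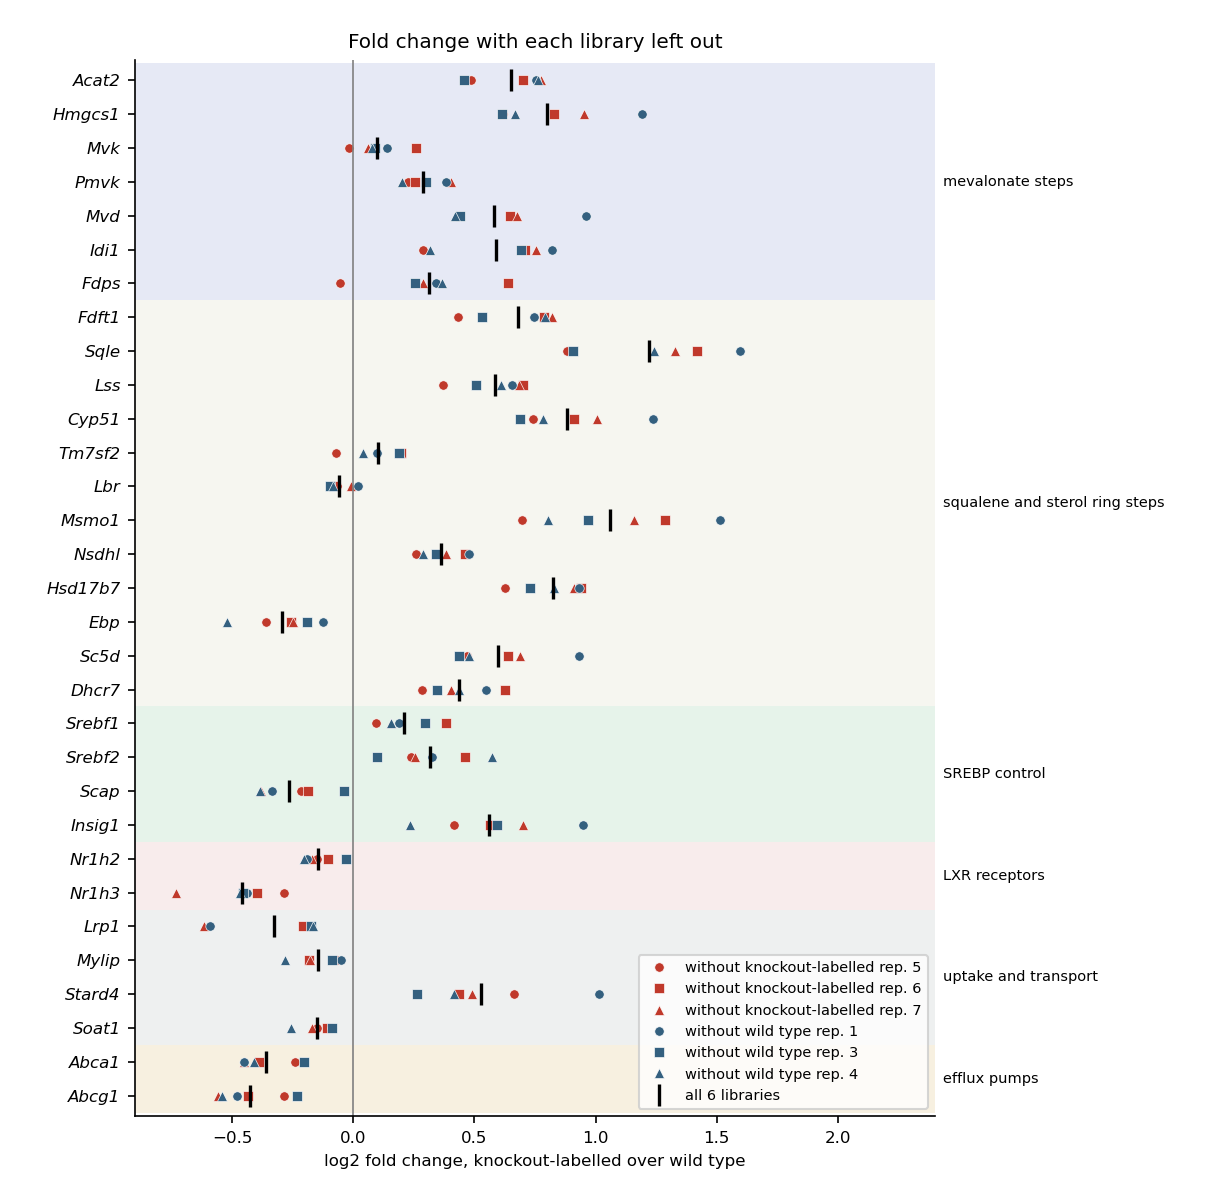
Log2 fold change of each gene with all 6 libraries (black bar) and with each library left out in turn (red: a knockout-labelled library left out; blue: a wild type library left out). The circle in blue, without wild type replicate 1, lies furthest right for Hmgcs1, Cyp51, Sqle and Msmo1, and the estimates of Abca1 and Abcg1 stay below 0 in all 6 settings.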

How the data were processed

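The deposited values are raw read counts per Ensembl gene, 1 file per library. Trim Galore, STAR 2.7, HTSeq and the build mm10 are named in the submitters' processing notes, and a kit for stranded total RNA in the labels' protocols. The sources used here give neither the annotation release nor the strand setting. Summary lines that name no gene stayed out of totals and tests. Reads that HTSeq assigned to no feature made up 46.8%, 51.2% and 50.1% in knockout-labelled libraries 5, 6 and 7. They made up 40.0%, 57.65% and 58.2% in wild type libraries 1, 3 and 4. These shares are of gene counts, no-feature reads and ambiguous reads together. No-feature reads need not lie outside genes, and their part in the ranking of the libraries was not tested. Ambiguous reads made up 1.94% to 14.5%. Of 53379 gene identifiers, 53274 matched GENCODE M21 (GRCm38, also called mm10), which gave symbols and exon lengths.

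Groups were compared with edgeR 4.0.16 (R 4.3.3): TMM scaling, filterByExpr, robust quasi-likelihood fit over 17221 genes, two-sided, with Benjamini-Hochberg adjustment. Levels are CPM after TMM. DESeq2 1.42.0 and limma-voom (limma 3.58.1) were alternatives, beside other scalings, filters and gene sets and each library left out. The code was tested on simulated counts. Depth set the floor: by total gene counts, before TMM, 3 counts were 0.0982 to 0.22 CPM. Libraries of a group differed beyond counting noise (chi-square per degree of freedom at least 49.8), so each counted as 1 sample. The members and lists were chosen with earlier results of these data known. All members are named; of each companion list, the 2 genes with the smallest p, are named, and Acly, Fads1 and Rxrg were chosen after their values were seen.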

Additional observations from a re-analysis of the deposited data

How the results depend on the processing

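No synthesis, control, uptake or efflux gene was called under another scaling, filter, test or gene set. Over the whole table, edgeR called 1 gene higher and 0 lower, against 4 higher and 1 lower with no filter on low counts, 14 higher and 6 lower with DESeq2, and 0 higher with protein-coding genes alone, where 1048 had an unadjusted p under 0.05. With 1 library left out, calls over all genes ran from 1 to 306 higher and from 0 to 15 lower, calls of synthesis genes higher from 0 to 2, and calls of companion genes higher from 0 to 1 (Cyp7b1, without wild type replicate 1). The count of synthesis genes whose groups did not overlap ran from 6 to 13, and the count with a positive estimate from 14 to 18; these counts were chosen after seeing the data. The median of the mevalonate steps ran from 0.29 (without knockout-labelled replicate 5) to 0.76. Of 496 fold changes of single genes under an alternative, 486 kept their sign and their side of the threshold. Library totals alone moved the median of all genes from -0.03 to 0.11, and Lbr, Nr1h2, Mylip and Soat1 then had log2 fold changes of 0.0807, 0.0140, 0.00493 and 0.00779. Signs also turned for Lbr without wild type replicate 1 (0.0183; range -0.10 to 0.02) and, without knockout-labelled replicate 5, for Mvk (-0.0192; range -0.02 to 0.26), Fdps (-0.0568; range -0.06 to 0.64) and Tm7sf2 (-0.0734; range -0.07 to 0.20). The cause was not tested. No paired analysis was possible because the groups share no replicate number. Genes with few counts, such as Nr1h3 and Fdps, are limited by depth.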
